A study of Rattus with 6 samples.

Results

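The 38 genes described here encode folding and quality-control factors of the endoplasmic reticulum (ER): stress sensors, chaperones, disulfide isomerases, prolyl isomerases and degradation factors. They were taken by name from the protein-coding rows of a table of gene expression, where all 38 were found among 22058 protein-coding and 54012 total rows. Their levels were compared between 3 libraries labelled si-CDCP1 and 3 labelled si-NC. The si-CDCP1 cultures carry the genotype label CDCP1 knockdown and were given an siRNA against CDCP1, a transmembrane glycoprotein phosphorylated by Src family kinases. The si-NC cultures carry the genotype label WT and the control siRNA. All 6 libraries are labelled as primary cultures of aortic vascular smooth muscle cells in medium with fetal bovine serum, and all received Ang II (angiotensin II, a vasoconstrictor peptide) after the siRNA, so that no culture without Ang II was compared. The labels do not give age, sex, dose, time, or whether replicates came from separate animals, so the p-values reflect variation among these 6 libraries, part of which may be technical. The organism label is rat while the values are listed for mouse genes on mouse build mm10, and which species the cells came from was not settled here.

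Secretory and membrane proteins fold in the ER, where the HSP70 protein BiP and the lectins calreticulin and calnexin hold unfolded chains and disulfide isomerases form their bonds. When unfolded chains accumulate, the sensors IRE1, ATF6 and PERK start the unfolded protein response, which raises transcription of chaperones and of the factors that send misfolded proteins to the proteasome. Smooth muscle cells that make matrix rely on this machinery because collagen is folded and hydroxylated in the ER.

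Recovered reads in listed genes ranged from 16230958 to 17295710 over the si-CDCP1 libraries and from 16050517 to 19771638 over the si-NC libraries. The siRNA target Cdcp1 had 0, 5 and 0 reads in the si-CDCP1 libraries and 2, 2 and 1 reads in the si-NC libraries, so its level cannot check the labels. Of 7 smooth muscle markers, Acta2 (34.4 to 64.2 FPKM over the si-CDCP1 libraries and 35.7 to 39.6 FPKM over the si-NC libraries) and Smtn were expressed, while Tagln, Cnn1 and Myh11 were under 0.3 FPKM in every library, so that defining contractile markers of the labelled cell type were near 0. The fibroblast markers Col1a1 and Col1a2 were above 100 FPKM in every library, and the summed 6 fibroblast markers ranged from 383 to 440.1 FPKM in si-CDCP1 and from 379 to 419.6 FPKM in si-NC. Nearly all of that sum was Col1a1 and Col1a2, which averaged 278 and 109 FPKM over all libraries. Pdgfra averaged 9.53 FPKM, Dcn 1.26 FPKM and Dpt 0.579 FPKM, and Lum had at most 1 read in any library. Markers of endothelium (5 genes) and epithelium (4 genes) summed to under 1 FPKM in every library. Those of macrophages and blood (5 genes) summed to between 2.67 and 3.255 FPKM in si-CDCP1 and between 2.88 and 3.07 FPKM in si-NC, with Adgre1 at 0 reads throughout. Of 6 markers of plasma and B cells, which carry much ER, only Sdc1 exceeded 1 FPKM (28.1 to 33.4 FPKM in si-CDCP1 and 29.2 to 31.6 FPKM in si-NC), and Igkc had 0 reads in all 6 libraries. The library of si-CDCP1 replicate 3 stood apart: Pearson's r of its log2 values with the other 5 libraries was 0.9787 to 0.9831, whereas pairs among those 5 gave 0.9877 to 0.9905, a description across genes. Values without it are given beside the results where they differ in sign or by over 1.5 times.

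The ER genes were abundantly expressed in both groups. Levels are in FPKM, a read measure divided by gene length, which allows a rough comparison between genes. If the cells were rat, the share of reads assigned to mouse genes could differ from gene to gene, which was not tested. The order of genes by level carries that limit. Over the 6 libraries 8 of the 38 genes averaged at least 100 FPKM, 25 averaged between 10 and 100 FPKM and 5 were under 10 FPKM. Hspa5, which encodes BiP, had the highest mean level (611 FPKM), followed by Hsp90b1 (314 FPKM), Calr (304 FPKM), P4hb (292 FPKM), Pdia3 (235 FPKM) and Herpud1 (200.5 FPKM). P4hb was below both Hsp90b1 and Calr in each of the 6 libraries. Hsp90b1 was below Calr in si-CDCP1 replicate 1 (315 against 319 FPKM) and above it in the others, so their order varied between libraries. At the other end Eif2ak3, Fkbp14, Ero1lb and Derl3 averaged 4.59, 4.31, 3.19 and 0.465 FPKM. Derl3, a derlin best known from secretory glands, rested on 10 to 19 reads per library and was the one gene of the 38 below the filter of a mean of 1 FPKM that the test used. The other 37 had at least 268 reads in every library. Together the 38 genes made up 1.22% ± 0.0886 of all FPKM in si-CDCP1 and 1.14% ± 0.0118 in si-NC (SD, n = 3 each), with 1.146%, 1.199% and 1.319% in the si-CDCP1 libraries and 1.154%, 1.134% and 1.133% in the si-NC libraries. The group difference in this share was carried by si-CDCP1 replicates 2 and 3, since replicate 1 lay below the highest si-NC library. In bulk RNA such as this, fewer cells of a type and less RNA per cell cannot be told apart.

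Most of the 37 tested genes had slightly higher values in si-CDCP1, but none passed the test. With limma on log2(FPKM + 1) and Benjamini-Hochberg adjustment over all 12080 tested genes, 0 of the 37 and 0 of all genes (0%) reached an adjusted p of 0.05; limma voom on recovered reads called 0 of the 38, against 0% of genes higher and 0.0348% lower. At an unadjusted p under 0.05, 10 of the 37 were higher and 1 was lower in si-CDCP1, against 8.94% and 5.31% of all genes tested. Over all genes that split was 1080 higher and 642 lower, but 790 and 797 with quantile normalisation and 537 and 1301 with equal FPKM sums, where the ER genes had 4 higher and 2 lower, and 3 higher and 1 lower. The 10 were Fkbp11, Manf, Calr, Dnajb11, Dnajc3, Serp1, Hyou1, Dnajb9, Xbp1 and Selenos, and the 1 lower gene was Edem2. In 16 genes all 3 si-CDCP1 libraries lay above all 3 si-NC libraries and in 1, Edem2, below them, which held for 14.4% and 10.6% of all genes tested. The median log2 difference, si-CDCP1 minus si-NC, was 0.078 over the 37 genes and 0.0077 over all genes, and 32 of 37 differences were positive, against 52.3% of all genes. That count was 26 with equal FPKM sums, against 38.4% of all genes, and 22 with quantile normalisation, against 49.1%. The ER genes are more highly expressed than most. A background of the 5288 protein-coding genes averaging 10 FPKM or more, called the abundant coding genes below, was chosen after the data had been seen. Of these, 14.7% were higher and 3.59% lower at an unadjusted p under 0.05, 23.5% had si-CDCP1 wholly above si-NC and 8% wholly below, 63.4% were positive, and the median log2 difference was 0.0415.

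**Figure D1:**
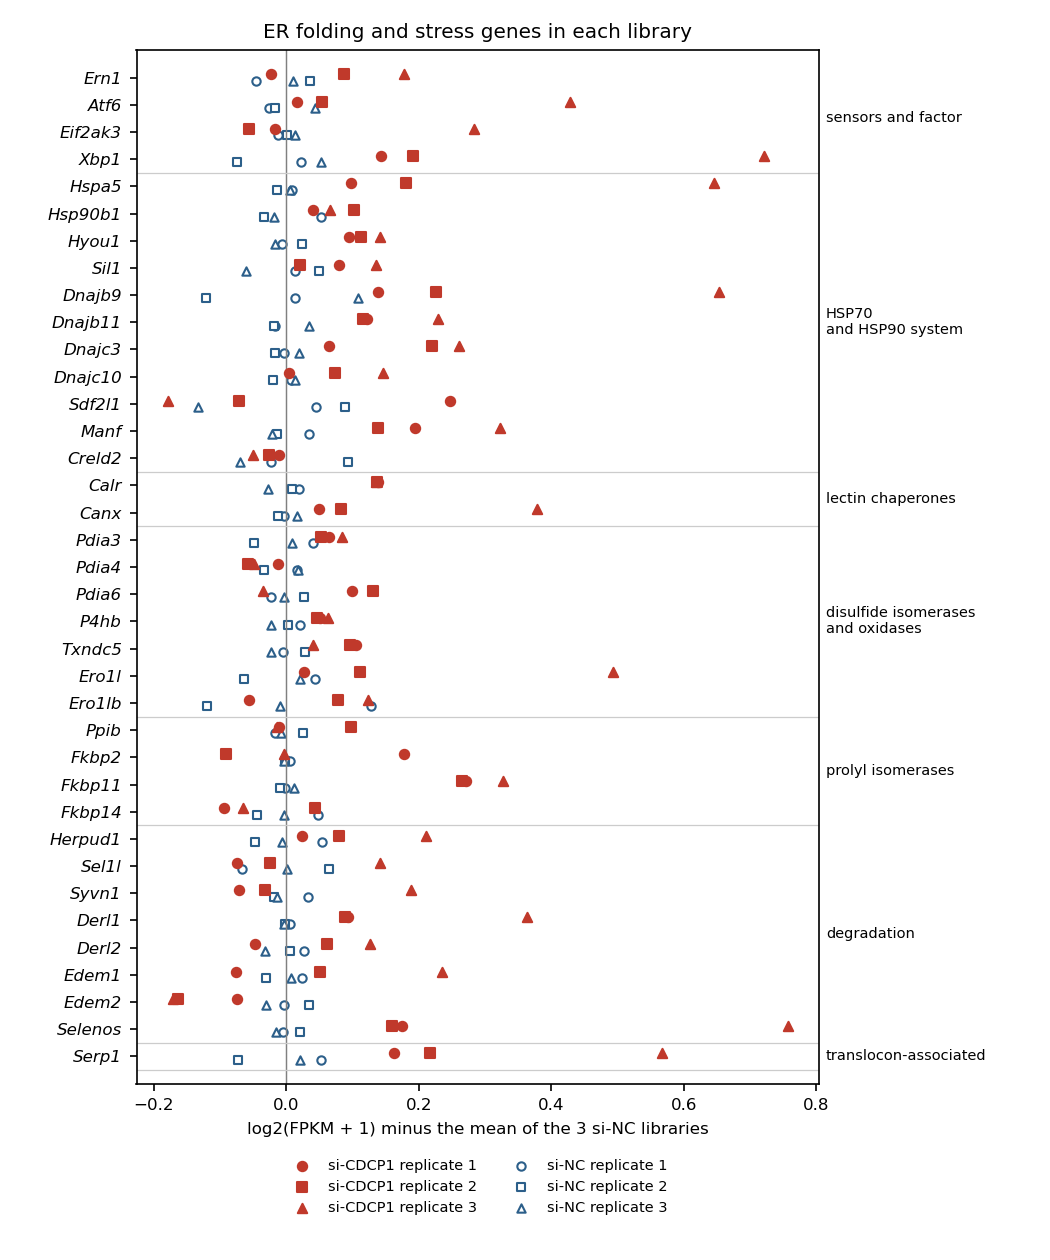
Value of each tested ER gene in each library, as log2(FPKM + 1) minus the mean of the 3 si-NC libraries; filled red symbols are si-CDCP1 libraries and open blue symbols si-NC libraries, with genes grouped by role. Most red symbols lie to the right of 0, and the red triangle, si-CDCP1 replicate 3, lies far to the right of all other symbols for Xbp1, Hspa5, Dnajb9, Selenos and Serp1 but not for Calr or Fkbp11.

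Fkbp11 had the smallest p-value of the 38 genes. It encodes a membrane-bound prolyl isomerase of the ER (ENSMUSG00000003355, mm10 chromosome 15, 98724366 to 98728198, minus strand). Its level was 27.96, 27.9 and 29.1 FPKM in the si-CDCP1 libraries, against 22.98, 22.8 and 23.2 FPKM in the si-NC libraries. The groups did not overlap and each was tight, with 1008 to 1310 reads behind each value. The si-CDCP1 mean was 23.1% above the si-NC mean, a log2 difference of 0.29 (SE 0.044, limma unadjusted p = 0.000329, adjusted p = 0.217). Without si-CDCP1 replicate 3 the log2 difference was 0.27. The gene passed the adjusted threshold in limma with library weights (adjusted p = 0.0142) and in voom without si-CDCP1 replicate 3 (adjusted p = 0.00755), while over all 20 alternatives the adjusted p ranged from 0.00755 to 0.645. Those weights placed most of the si-CDCP1 group on its replicate 2.

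The other 3 prolyl isomerases showed no such separation. Ppib, cyclophilin B, which acts on collagen, averaged 24.97 ± 1.16 FPKM in si-CDCP1 and 24.5 ± 0.389 FPKM in si-NC (SD, n = 3 each). The log2 difference of Ppib had a 95% interval of -0.10 to 0.14 and was negative with quantile normalisation and with equal FPKM sums. Fkbp2 had a log2 difference of 0.028 (interval -0.14 to 0.20, and negative with quantile normalisation and with equal FPKM sums). Fkbp14, an isomerase needed for collagen folding, had one of -0.039 (interval -0.20 to 0.12). Without si-CDCP1 replicate 3 those of Ppib, Fkbp2 and Fkbp14 were 0.043, 0.044 and -0.026.

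Calr was the steadiest difference among the abundant chaperones. Calreticulin, its product, is the soluble lectin chaperone of the ER lumen (mm10 chromosome 8, 84841850 to 84846934, minus strand). The si-CDCP1 libraries had 319, 319 and 318 FPKM, against 293, 291 and 284 FPKM in the si-NC libraries. All 3 si-CDCP1 values lay within 1 FPKM of each other and above every si-NC value, a log2 difference of 0.14 (SE 0.042, limma unadjusted p = 0.0135, adjusted p = 0.289). That difference was 0.14 without si-CDCP1 replicate 3 and 0.045 with quantile normalisation. Canx, the membrane-bound partner calnexin, had 159.7, 163 and 201 FPKM in si-CDCP1 and 154, 153 and 156 FPKM in si-NC. Here too the si-CDCP1 libraries were all higher, and the log2 difference of Canx was 0.17 (SE 0.088), or 0.066 without si-CDCP1 replicate 3.

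**Figure D2:**
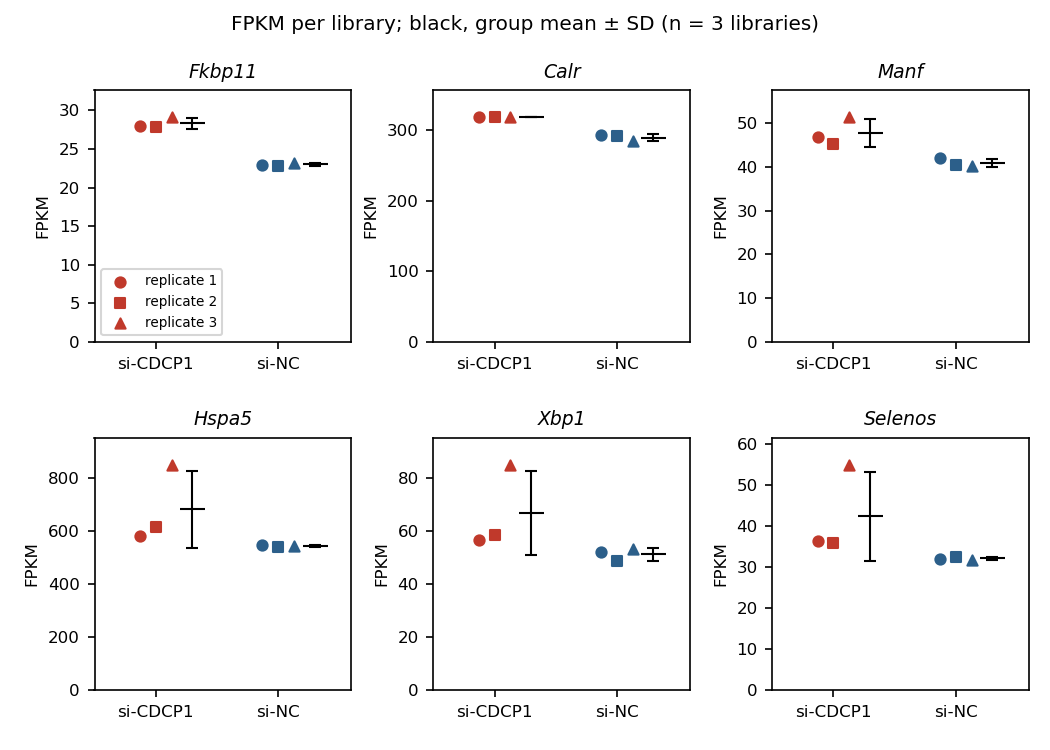
FPKM of 6 ER genes in each si-CDCP1 library (red, left) and si-NC library (blue, right), with black bars for the group mean ± SD (n = 3 libraries each) and axes from 0. For Fkbp11 and Calr the 3 si-CDCP1 libraries sit together above the si-NC libraries, whereas for Hspa5, Xbp1 and Selenos replicate 3 lies well above the other si-CDCP1 libraries.

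In the HSP70 and HSP90 system, 9 of 11 genes were on the positive side (7 with quantile normalisation), 5 at an unadjusted p under 0.05, and the median log2 difference was 0.12. Over the abundant coding genes 63.4% were positive and 14.7% were higher at that threshold. Hspa5 (mm10 chromosome 2, 34771970 to 34777547, plus strand) had 579.6, 614 and 848 FPKM in the si-CDCP1 libraries, against 545, 537 and 544 FPKM in the si-NC libraries. The groups did not overlap, and si-CDCP1 replicate 3 lay 38.1% above the next library. The log2 difference of Hspa5 was 0.31 (SE 0.14, limma unadjusted p = 0.05699, adjusted p = 0.355) and 0.14 without that library. On those 5 libraries the adjusted p of Hspa5 was 0.1703 with limma on log2(FPKM + 1) and 0.00922 with limma voom on recovered reads. Hsp90b1, which encodes the ER form of HSP90, GRP94, had 315, 329 and 320.4 FPKM against 317, 299 and 302 FPKM in si-NC, and its groups overlapped. Its log2 difference of 0.070 had a 95% interval of -0.042 to 0.18 and was -0.052 with quantile normalisation.

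The co-chaperones of BiP are the proteins that drive or reset its cycle. Dnajb9 (ERdj4, a J-domain protein that also restrains IRE1) had 14.4, 15.3 and 20.9 FPKM in si-CDCP1 and 13.1, 11.8 and 14.04 FPKM in si-NC. The groups did not overlap, and its log2 difference of 0.34 (SE 0.14, limma unadjusted p = 0.0419) was 0.18 without si-CDCP1 replicate 3. Dnajb11 (ERdj3) had 30.5, 30.3 and 32.9 FPKM in si-CDCP1, against 27.6, 27.5 and 28.6 FPKM in si-NC. Dnajc3, known as p58IPK, had 44.2, 49.4 and 50.8 FPKM, against 42.1, 41.8 and 42.8 FPKM in si-NC. In Dnajb11 and Dnajc3 the groups did not overlap and replicate 3 was within 10% of the next library, with log2 differences of 0.16 (SE 0.051) and 0.18 (SE 0.061), or 0.10 and 0.11 with quantile normalisation. Hyou1, a nucleotide exchange factor for BiP, had 69.3, 70.2 and 71.7 FPKM against 64.6, 65.9 and 64.1 FPKM in si-NC, a log2 difference of 0.12 (SE 0.042) with no overlap, or 0.036 with quantile normalisation and 0.062 with equal FPKM sums. Sil1, another exchange factor, and Dnajc10 (ERdj5, a disulfide reductase) had log2 differences of 0.078 and 0.074 (the second negative with quantile normalisation), or 0.050 and 0.039 without si-CDCP1 replicate 3, and their groups overlapped.

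Manf, which encodes a small stress-induced protein of the ER that can be secreted, had 46.9, 45.1 and 51.3 FPKM in si-CDCP1, against 41.9, 40.5 and 40.2 FPKM in si-NC. The groups did not overlap, and the log2 difference of 0.22 (SE 0.059, limma unadjusted p = 0.00752, adjusted p = 0.269) was 0.17 without si-CDCP1 replicate 3. The listed span of Manf (mm10 chromosome 9, 106838312 to 106891979, minus strand) also holds Rbm15b on the same strand, at a mean of 12.9 FPKM, and overlaps Dcaf1 on the other strand. How the authors' counting treats such overlaps is not given in the sources used here, so the value of Manf is uncertain. Sdf2l1 and Creld2, both stress-induced ER proteins, did not share the pattern. Sdf2l1 averaged 20.5 ± 3.41 FPKM in si-CDCP1 and 20.4 ± 1.703 FPKM in si-NC, with a 95% interval of -0.28 to 0.28 on the log2 scale. Creld2 averaged 62.7 ± 0.8902 FPKM in si-CDCP1 and 64.1 ± 3.85 FPKM in si-NC, with an interval of -0.16 to 0.10. Their log2 differences were -0.0011 and -0.029, or 0.088 and -0.019 without si-CDCP1 replicate 3.

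The 3 sensors showed small differences, and the transcription factor Xbp1 a larger one. Xbp1, whose mRNA is spliced by IRE1 in stress (mm10 chromosome 11, 5520659 to 5525893, plus strand), had 56.5, 58.5 and 84.9 FPKM in si-CDCP1, against 51.95, 48.5 and 53.03 FPKM in si-NC. Values per gene do not separate the spliced from the unspliced form. The groups did not overlap, and the log2 difference was 0.35 (SE 0.15, limma unadjusted p = 0.0488, adjusted p = 0.3503), or 0.17 without si-CDCP1 replicate 3. Ern1, which encodes the sensor IRE1 alpha, had 23.4, 25.3 and 27.01 FPKM in si-CDCP1 and 23.003, 24.4 and 23.9 FPKM in si-NC, with overlapping groups. Atf6, a membrane-held factor released by cleavage in the Golgi, had 26.7, 27.5 and 35.9 FPKM in si-CDCP1 and 25.9, 26.1 and 27.3 FPKM in si-NC. Eif2ak3, which encodes the kinase PERK, had 4.37, 4.22 and 5.61 FPKM in si-CDCP1 and 4.39, 4.44 and 4.48 FPKM in si-NC. The groups overlapped in all 3 sensors. Over all 6 libraries the log2 differences of Ern1, Atf6 and Eif2ak3 were 0.080, 0.17 and 0.070, while leaving out si-CDCP1 replicate 3 gave 0.032, 0.035 and -0.037.

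Of 7 disulfide isomerases and oxidases 0 had an unadjusted p under 0.05 in limma over 6 libraries, and 2, Pdia6 and Txndc5, were higher at that threshold without si-CDCP1 replicate 3. Among all genes tested 8.94% were higher and 5.31% lower over 6 libraries, and 10.8% and 5.81% without that library. Over 6 libraries 6 were on the positive side, and the median log2 difference was 0.065, or -0.017 with 2 of 7 positive under quantile normalisation. P4hb, the classical disulfide isomerase and a subunit of collagen prolyl hydroxylase, had 297, 296 and 299.7 FPKM in si-CDCP1, against 291, 287 and 282 FPKM in si-NC. Pdia3 (ERp57, the partner of calreticulin) had 240.2, 238 and 244 FPKM, against 236, 222 and 231 FPKM in si-NC, and Txndc5 89.3, 88.7 and 85.3 FPKM, against 82.7, 84.6 and 81.5 FPKM. In these 3 genes all si-CDCP1 libraries were above all si-NC libraries, yet by 3.77%, 4.72% and 5.84% on average, and each difference was negative with quantile normalisation. Such a separation held for 14.4% of all genes tested and 23.5% of abundant coding genes. Pdia4 and Pdia6, 2 further isomerases, had log2 differences of -0.040 (interval -0.14 to 0.061) and 0.065 (interval -0.067 to 0.20, and negative with quantile normalisation). Without si-CDCP1 replicate 3 that of Pdia6 was 0.12 (limma unadjusted p = 0.0127, adjusted p = 0.187). Ero1l, the oxidase that recharges the isomerases, averaged 93.1 ± 16.8 FPKM in si-CDCP1 and 79.5 ± 3.104 FPKM in si-NC. Its log2 difference of 0.21 (SE 0.12) was 0.069 without si-CDCP1 replicate 3. Its paralog Ero1lb was at 2.95 to 3.48 FPKM in si-CDCP1 and 2.78 to 3.49 FPKM in si-NC, a log2 difference of 0.048, or 0.010 without that library.

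Among 8 tested degradation factors of the ER, 1 was higher and 1 lower at a limma unadjusted p under 0.05. The shares were 8.94% and 5.31% of all genes tested, and 14.7% and 3.59% of abundant coding genes. The median log2 difference was 0.059, or -0.0024 without si-CDCP1 replicate 3. Selenos, a selenoprotein that links the derlins to the p97 ATPase, had 36.4, 35.97 and 54.97 FPKM in si-CDCP1, against 31.98, 32.6 and 31.8 FPKM in si-NC. Replicate 3 lay 51.1% above the next library, the widest such gap of the 38 genes, and the log2 difference of 0.36 (SE 0.15, limma unadjusted p = 0.04996) was 0.17 without it. Derl1, a derlin that takes part in moving proteins out of the ER, had 115, 114 and 139 FPKM in si-CDCP1, against 108, 107 and 107 FPKM in si-NC. Its groups did not overlap, and its log2 difference of 0.18 (SE 0.079) was 0.091 without si-CDCP1 replicate 3. Edem2, a mannosidase-family protein that marks glycoproteins for degradation, was the 1 gene with si-CDCP1 wholly below si-NC. It had 13.6, 12.7 and 12.7 FPKM in si-CDCP1, against 14.4, 14.8 and 14.1 FPKM in si-NC, a log2 difference of -0.14 (SE 0.052, limma unadjusted p = 0.0333, adjusted p = 0.326).

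The core of the degradation machinery did not separate. Herpud1, a stress-induced scaffold of the complex, had 196, 204 and 223 FPKM in si-CDCP1 and 200.4, 187 and 192 FPKM in si-NC. The groups overlapped, and its log2 difference of 0.10 (SE 0.062) was 0.052 without si-CDCP1 replicate 3. Sel1l and Syvn1, which form the membrane ubiquitin ligase, had log2 differences of 0.014 and 0.028 over 6 libraries, negative with quantile normalisation and with equal FPKM sums, and of -0.050 and -0.052 without si-CDCP1 replicate 3. Edem1, a relative of Edem2, and Derl2, another derlin, had log2 differences of 0.070 (interval -0.12 to 0.26) and 0.047 (interval -0.10 to 0.19, and negative with equal FPKM sums). Without si-CDCP1 replicate 3 they were -0.012 and 0.0073. Derl3 was at 0.551, 0.4002 and 0.611 FPKM in si-CDCP1 and 0.475, 0.308 and 0.449 FPKM in si-NC. Without replicate 3 of si-CDCP1 4 of the 8 tested degradation genes had positive differences, against 7 of 8 over all libraries.

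Serp1, which encodes the small translocon-associated protein RAMP4 (mm10 chromosome 3, 58519817 to 58525892, minus strand), had 81.3, 84.5 and 108 FPKM in si-CDCP1, against 75.3, 68.9 and 73.6 FPKM in si-NC. All si-CDCP1 libraries were above all si-NC libraries. The log2 difference was 0.32 (SE 0.11, limma unadjusted p = 0.0214, adjusted p = 0.306) and 0.19 without si-CDCP1 replicate 3. Serp1 shares 72 bases of its listed span with Eif2a on the other strand, at a mean of 11.9 FPKM.

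**Figure D3:**
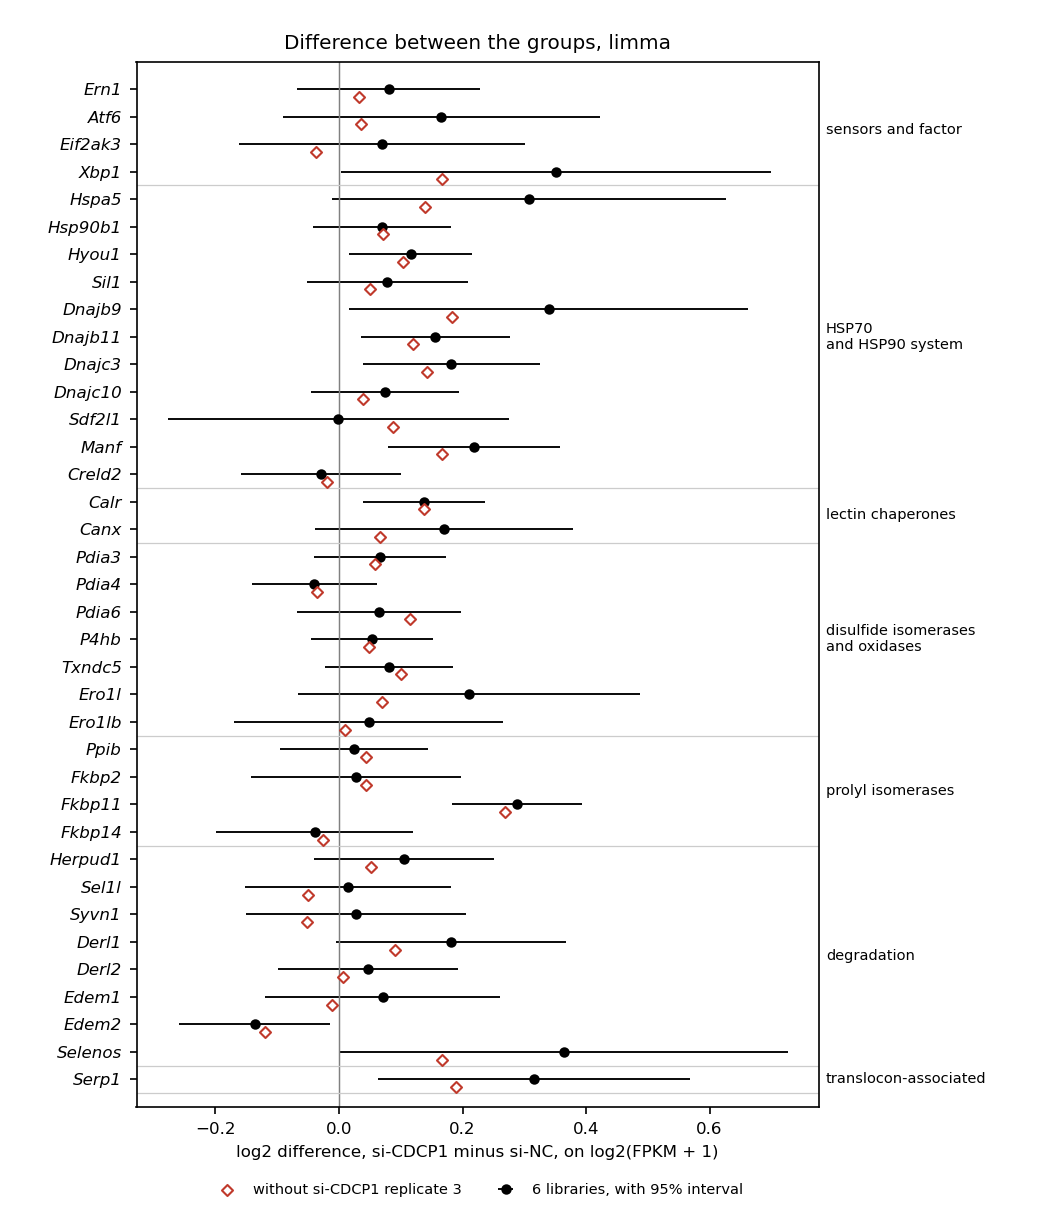
Log2 difference of each tested ER gene, si-CDCP1 minus si-NC, with its 95% interval from limma over 6 libraries (black), and the difference without si-CDCP1 replicate 3 (open red diamonds). The red diamonds of Xbp1, Hspa5, Dnajb9, Selenos and Serp1 lie at 0.14 to 0.19, while those of Fkbp11 and Calr stay next to their black points.

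The ER genes varied in how far si-CDCP1 replicate 3 lay above the other libraries, and limits of 10% and 20% were set after the values were seen. In 25 of the 37 genes this library was the highest of the 6, against 34.0% of all genes tested. In 12 of the 37 it exceeded the next library by over 10%, and in 10 by over 20%, against 17.5% and 7.46% of all genes tested. Such shares over the abundant coding genes, which may differ, are not given here. Of the 16 genes with si-CDCP1 wholly above si-NC, 7 exceeded 10% (Hspa5, Xbp1, Dnajb9, Selenos, Serp1, Canx and Derl1), while in the other 9 replicate 3 lay within 10% of the next library or below it. Those 9 were Fkbp11, Calr, Manf, Dnajb11, Dnajc3, Hyou1, P4hb, Pdia3 and Txndc5. The values ran on across 10%, with Manf at 9.51%, Herpud1 at 9.502%, Syvn1 at 12.01% and Edem1 at 14.2%. By library, the median deviation of the 37 genes from the si-NC mean was 0.051, 0.082 and 0.15 on the log2 scale in si-CDCP1 replicates 1, 2 and 3, while the median of all genes was 0.0090, 0.0053 and 0.011. The recovered reads in listed genes of si-CDCP1 replicate 3 were within the range of the other libraries. The total of reads implied by its FPKM values was the lowest of the 6, however. Its listed reads were 104.0% of that implied total, against 98.4% to 99.9% in the other libraries. The cause of the distance of this library was not tested.

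**Figure D4:**
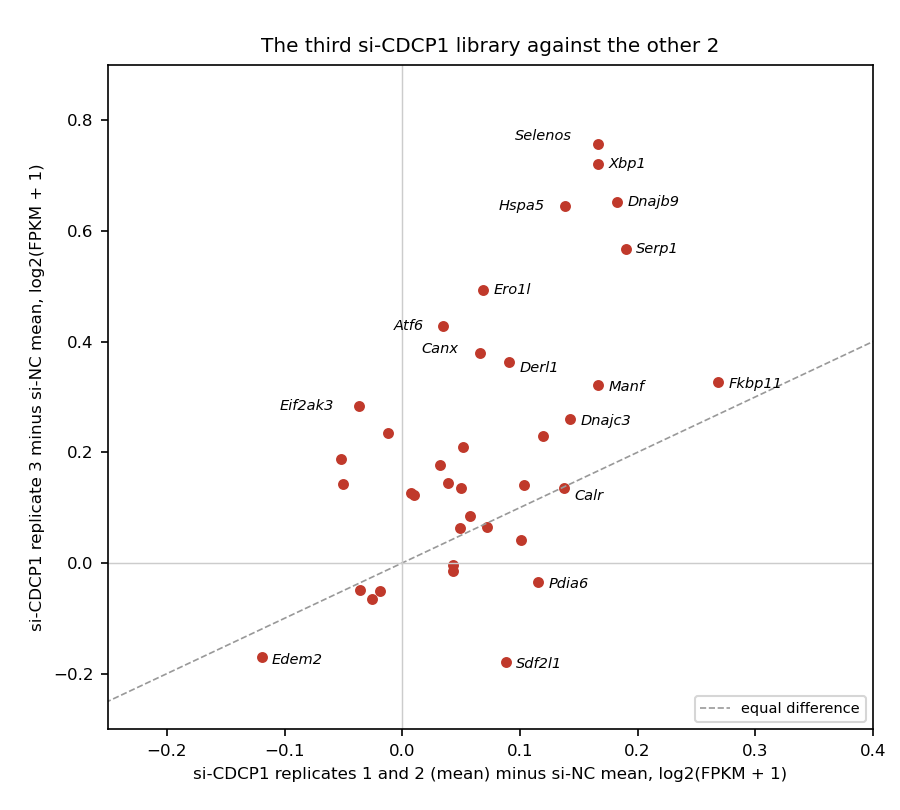
Each point is 1 tested ER gene, placed by the mean of si-CDCP1 replicates 1 and 2 minus the si-NC mean (horizontal) and by si-CDCP1 replicate 3 minus the si-NC mean (vertical), both on log2(FPKM + 1); the dashed line marks equal differences. Selenos, Xbp1, Dnajb9 and Hspa5 lie far above the line, Calr lies on it, and Sdf2l1 and Pdia6 lie below it.

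Without si-CDCP1 replicate 3, limma again called 0 of the 37 genes at an adjusted p of 0.05 (0% of all genes), and 14 were higher and 1 lower at an unadjusted p under 0.05, against 10.8% and 5.81% of all genes tested. In 17 genes both remaining si-CDCP1 libraries lay above all si-NC libraries and in 3 below, against 19.9% and 16.2% of all genes tested. The median log2 difference was then 0.058, against 0.0064 over all genes and 0.0285 over the abundant coding genes. Limma voom on the recovered reads of these 5 libraries called 5 of the 38 genes higher and 0 lower in si-CDCP1, against 2.40% and 1.06% of the genes it tested. These 5 were Hspa5, Calr, Manf, Fkbp11 and Serp1. When limma estimated a weight for each of the 6 libraries, 6 were called higher (Fkbp11, Calr, Manf, Serp1, Hyou1 and Dnajc3) and 1 lower (Edem2), against 4.62% and 2.54% of genes tested. In that fit si-CDCP1 replicates 1, 2 and 3 had weights of 0.6005, 5.11 and 0.165, and the si-NC libraries 1.33, 1.083 and 1.374. The si-CDCP1 side of these calls therefore rested mostly on replicate 2. Fkbp11, Calr, Manf and Serp1 were called in both, and the 2 fits share libraries. For the counts of genes in these fits, shares over the abundant coding genes are not given here.

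The surrounding machinery of the secretory pathway, 93 further genes in 7 lists, was examined in the same limma fit. In limma 0 of the 93 passed over all genes, 77 had positive log2 differences (57 with quantile normalisation and 61 with equal FPKM sums), and 21 were higher and 0 lower at an unadjusted p under 0.05. Among all genes tested 52.3% were positive, 8.94% higher and 5.31% lower at that threshold, and among the abundant coding genes 63.4%, 14.7% and 3.59%. In the translocon and signal peptidase list, which brings chains into the ER and trims them, all 17 differences were positive with a median of 0.16, or 0.094 without si-CDCP1 replicate 3, and 8 had an unadjusted p under 0.05, while 15 were positive with quantile normalisation and 16 with equal FPKM sums. In 10 of the 17 the si-CDCP1 libraries all lay above the si-NC libraries (23.5% of abundant coding genes), and in 13 of the 17 si-CDCP1 replicate 3 was the highest library. Ssr2, a subunit of the translocon-associated complex, had 121, 112 and 129 FPKM in si-CDCP1, against 98.1, 97.98 and 104 FPKM in si-NC, a log2 difference of 0.27 (SE 0.062, limma adjusted p = 0.267). Spcs1, a signal peptidase subunit, had 56.7, 54.2 and 54.6 FPKM, against 48.7, 46.9 and 49.3 FPKM in si-NC, and Ssr4 had 23.003, 20.01 and 20.8 FPKM, against 19.2, 17.6 and 17.95 FPKM. These 3 were named for their smallest p, and replicate 3 was not the highest library in Spcs1 or Ssr4.

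The branch of the stress response that runs through PERK and ATF4 had 8 tested genes, all with positive log2 differences (median 0.21, and 0.16 without si-CDCP1 replicate 3), 5 of them at an unadjusted p under 0.05, while 6 were positive with quantile normalisation and 7 with equal FPKM sums. The share higher at that threshold was 8.94% of all genes and 14.7% of abundant coding genes. Ddit3, which encodes the transcription factor CHOP, had 115, 107 and 123 FPKM in si-CDCP1, against 93.3, 93.1 and 96.3 FPKM in si-NC (log2 difference 0.28, SE 0.059, limma adjusted p = 0.267). Ppp1r15a, the phosphatase subunit GADD34 that restores translation, had 61.4, 62.7 and 83.2 FPKM, against 50.8, 51.01 and 52.7 FPKM in si-NC. Its log2 difference of 0.40 was 0.26 without si-CDCP1 replicate 3. Atf4 had 376, 363 and 422 FPKM, against 355, 334 and 349.5 FPKM in si-NC, a log2 difference of 0.16, or 0.095 without that library. Nupr1, a stress-induced chromatin protein, had 104, 101 and 117 FPKM, against 92.4, 87.5 and 90.3 FPKM in si-NC. In all 4 genes the groups did not overlap.

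The other 5 lists lay nearer to the median of all genes. Their counts below stand beside 8.94% of all genes tested and 14.7% of abundant coding genes higher at a limma unadjusted p under 0.05. Vesicle traffic between ER and Golgi (17 genes) had a median log2 difference of 0.085, with 2 genes at an unadjusted p under 0.05: Sar1b, a GTPase of COPII vesicles (0.17, SE 0.046), and Sec13, a COPII coat protein (0.15, SE 0.050). N-glycan transfer and trimming (15 genes) had a median of 0.059 and 3 such genes: Ostc (0.17), Mogs (0.11) and Stt3a (0.18, or 0.097 without si-CDCP1 replicate 3). Other folding enzymes (17 genes) had a median of 0.045, with Tmx3 (0.17) and Qsox1 (0.17) higher at an unadjusted p under 0.05 and P4ha1, a collagen prolyl hydroxylase, at -0.11 (SE 0.046). Other degradation factors (10 genes) had a median of 0.10 and 1 such gene, the ubiquitin-conjugating enzyme Ube2g2 (0.27, SE 0.10, or 0.15 without si-CDCP1 replicate 3). Other stress factors (9 genes) had a median of 0.019 and 0 such genes in limma. Without si-CDCP1 replicate 3 the medians of these 5 lists were 0.028, 0.041, 0.019, 0.030 and 0.0013. With quantile normalisation the medians of the N-glycan, other folding and other stress lists were -0.00099, -0.0061 and -0.0065.

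**Figure D5:**
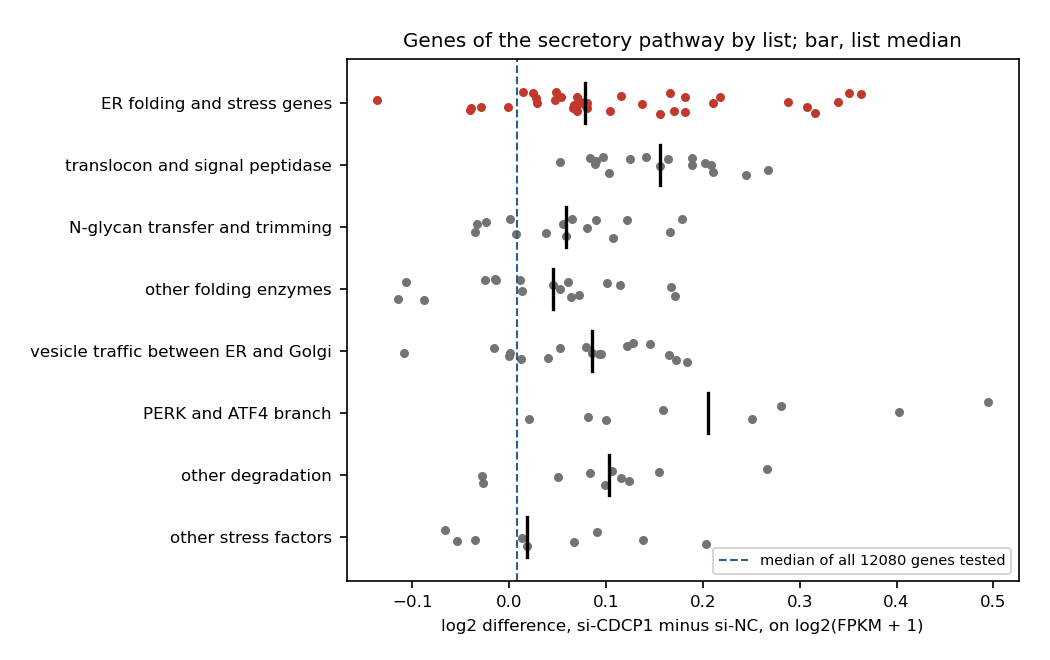
Log2 differences, si-CDCP1 minus si-NC, of the 37 tested ER folding and stress genes (red) and of the 93 genes in 7 further lists of the secretory pathway (grey), 1 point a gene; black bars are list medians and the dashed line is the median of all 12080 genes tested. The medians run from 0.019 for other stress factors to 0.21 for the PERK and ATF4 branch, and the translocon list has no point at or below 0 on this scale, though 2 of its 17 genes are not positive with quantile normalisation.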

How the data were processed

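RNA sequencing was done on 6 libraries made with a SMARTER mRNA kit, per the labels' protocols. The authors deposited 1 table of FPKM values; the build is mm10 per the submitters' processing notes, while for the aligner, the counter, multi-mapping and strand the answer is: not given in the sources used here. Each FPKM times the deposited gene length was a whole multiple of 1 step per library (100% of values, tolerance 0.01 of 1 read). The implied totals equal median-of-ratios size factors over 16824 genes, so libraries had been scaled to each other by the authors. After that scaling the summed FPKM still separated by group. They were 286916 to 294678 in the si-CDCP1 libraries and 280056 to 282051 in the si-NC libraries, a gap that equal FPKM sums remove. Its cause was not tested. A floor of 3 reads in 1 kb stands for 0.149 to 0.192 FPKM. The intervals printed above come from the limma fit and rest on the spread between libraries, not on read counts alone.

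The 12080 genes averaging 1 FPKM or more were tested as log2(FPKM + 1) by limma 3.58.1 (R 4.3.3), two-sided, its variance prior following mean expression, and p-values were adjusted by Benjamini-Hochberg (threshold 0.05). The added 1 FPKM shrinks the log2 differences of low genes. An exact permutation test of 3 against 3 libraries cannot go below p = 0.1 and was not used. The fit was tested on simulated data in which both groups had the spread of the si-NC libraries. That simulation does not cover the wider spread that replicate 3 gives the si-CDCP1 group. No replicate pair was a duplicate (chi-square per degree of freedom at least 2.98).

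The members and lists were chosen with earlier results of these data known. Values per library are given for members with an unadjusted p under 0.05, with non-overlapping groups, or of set interest (Hspa5, Hsp90b1, Calr, Xbp1, Atf6, Ern1, Eif2ak3, Herpud1 and Fkbp11); from each further list up to 3 genes with the smallest p are named, besides Ddit3 and Atf4. Alternatives were pseudocounts of 0.1 and 0.01, filters, scalings, no trend, library weights, a replicate block, removal of each library's length trend, protein-coding genes, voom on the recovered reads (at least 10 reads in 3 libraries) and each library left out. Promoter and protein sequences were not analysed here. The labels do not say that replicate numbers mark a shared batch, so no pairing was used. Same-numbered libraries did not deviate together, which cannot exclude a shared origin.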

Additional observations from a re-analysis of the deposited data

How the results depend on the processing

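Of the 37 tested ER genes, 20 kept the sign of their difference under every alternative run (19 or 20 a gene), among them the 10 higher ones at an unadjusted p under 0.05, Hspa5 and Edem2. The number of ER genes called over all genes was 0, except for 7 with library weights and 5 in voom without si-CDCP1 replicate 3. Over all genes 0 were called, against 7 without a filter, 4 at a mean of at least 5 FPKM, 2 among protein-coding genes, 1 with median log ratio scaling, 2 with quantile normalisation, 1 with equal FPKM sums, 865 with library weights, 1 with the replicate block, 3 with the length trend removed, 5 in voom and 493 in voom without si-CDCP1 replicate 3. The 11 ER genes at an unadjusted p under 0.05 (10 higher, 1 lower) became 6 (4 higher, 2 lower) with quantile normalisation, 4 (3 higher, 1 lower) with equal FPKM sums, 7 (6 higher, 1 lower) without the trend and 17 (16 higher, 1 lower) with library weights. Library weights also raised the split over all 12080 genes, to 1953 higher and 1558 lower, and without the trend it was 951 and 687. The 17 with non-overlapping groups became 10 with quantile normalisation and 11 with equal FPKM sums, and the median log2 difference of the 37 genes, 0.078, became 0.039 and 0.027. The share of all genes with non-overlapping groups under these scalings is not given here. With equal FPKM sums the median of all genes was -0.039 and the split of all genes at an unadjusted p under 0.05 was 537 higher and 1301 lower, against 1080 and 642. With quantile normalisation it was 790 and 797.

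With 1 library left out, the calls over all genes ranged from 0 to 1, the ER genes at an unadjusted p under 0.05 from 3 to 15, those with non-overlapping groups from 18 to 26 and the median log2 difference from 0.058 to 0.11. Non-overlap is easier for every gene with fewer libraries. Without si-CDCP1 replicate 3 it held for 19.9% of all genes higher and 16.2% lower, against 14.4% and 10.6% over 6 libraries. The low counts of 4, 3 and 6 came without si-NC replicates 1, 2 and 3, against 15, 9 and 15 without si-CDCP1 replicates 1, 2 and 3. Over all genes the higher and lower counts without those si-NC libraries were 640 and 335, 598 and 317, and 709 and 389. Without the si-CDCP1 libraries they were 1283 and 852, 1085 and 593, and 1300 and 702. The highest median and the 26 came without si-CDCP1 replicate 1. With the replicate number as a block, 10 ER genes had an unadjusted p under 0.05 and 0 were called, against 994 higher and 564 lower of all genes at that threshold. Same-numbered libraries had correlations of deviations of -0.02, 0.0265 and 0.0223. With 3 libraries a group, these cannot tell whether same-numbered libraries share an origin.

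Signs that reversed belonged to small differences, and the cause was not tested. Quantile normalisation gave -0.052 for Hsp90b1, -0.00059 for Dnajc10, -0.062 for Pdia3, -0.011 for Pdia6, -0.038 for P4hb, -0.017 for Txndc5, -0.027 for Ppib, -0.044 for Fkbp2, -0.034 for Sel1l and -0.012 for Syvn1. Equal FPKM sums gave -0.00097 for P4hb, -0.028 for Ppib, -0.026 for Fkbp2, -0.038 for Sel1l, -0.023 for Syvn1 and -0.0021 for Derl2. Library weights gave -0.043 for Eif2ak3, -0.061 for Fkbp2, 0.023 for Fkbp14, -0.021 for Sel1l and -0.031 for Syvn1, and removal of the length trend -0.0048 for Fkbp2. Voom gave 0.0054 for Sdf2l1, and without si-CDCP1 replicate 3 voom gave -0.044 for Eif2ak3, 0.097 for Sdf2l1, -0.050 for Sel1l, -0.056 for Syvn1 and -0.015 for Edem1. With 1 library left out, the ranges were -0.037 to 0.13 for Eif2ak3, -0.13 to 0.088 for Sdf2l1, -0.065 to 0.017 for Creld2, -0.012 to 0.11 for Ero1lb, -0.012 to 0.043 for Ppib, -0.048 to 0.087 for Fkbp2, -0.050 to 0.058 for Sel1l, -0.052 to 0.078 for Syvn1 and -0.012 to 0.14 for Edem1. Derl3 had at most 19 reads a library, and Fkbp14 (268 to 380) and Ero1lb (302 to 467) also rest on few reads, where counting error limits what can be seen.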
